A study of Mus musculus with 14 samples.

Results

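The comparison described here set H3K27me3 in mouse embryonic stem cells (mESCs) that lack the Hoxa cluster against mESCs that lack the Wnt6 anchor. Its members were the 3 Cut&Tag libraries labelled as Hoxa deletion and the 2 labelled as Wnt6 deletion, chosen by their sample titles, which are 5 of the 14 libraries of the series. Both lines were made by CRISPR-Cas9 editing of G4 mESCs, a hybrid of the 129/Sv and C57BL/6 strains, and were described as homozygous for their deletion. Both were grown with leukemia inhibitory factor (LIF) on CD1 feeder cells, so that either can hold feeder chromatin. The methods speak of a single clone for each deletion, and clone and deletion cannot be told apart here. No column held unedited cells, and a difference therefore does not show which of the lines moved. All log2 fold changes are given as the Hoxa deletion over the Wnt6 deletion, so that a positive value is a higher level in the Hoxa deletion.

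H3K27me3 is the trimethyl mark that Polycomb repressive complex 2 (PRC2) places on histone H3 at silent developmental genes, where PRC1 binds to it. In embryonic stem cells the mark fills the Hox clusters and the promoters of many transcription factor and signaling genes, and it can spread from sites of PRC2 recruitment into the neighboring chromatin. Polycomb-marked regions also meet in long-range loops. The Hoxa cluster, whose genes pattern the body axis, loops to Vax2, a homeobox gene of the ventral eye, and the Wnt6 anchor loops to Pax3, a paired-box gene of neural crest and muscle. Deletion of an anchor was designed to ask whether H3K27me3 changes nearby and at the loop partner on the same chromosome. With both deletions in a single contrast, each chromosome serves as the unedited one for the other line.

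Library totals over the peaks ran from 8656908 to 36563541 counts, and the median peak, before any filter, held between 32 and 148 counts. Pearson's r of log2 CPM (reads scaled to a common library size) between libraries of the same deletion lay between 0.957 and 0.972 over 4 pairs, across peaks that are not independent replicates. Between deletions it lay between 0.934 and 0.958 over 6 pairs. The labels do not say whether replicates came from separate cultures, and p-values measure only the spread between these libraries, which may be technical. The deleted stretches checked the labels. Of the mean level in the Wnt6 deletion, the Hoxa deletion libraries kept 0.0969%, 0.160% and 0.153% over 46 peaks that cover Hoxa2 to Hoxa13. Of the mean level in the Hoxa deletion, the Wnt6 deletion libraries kept 0.549% and 0.500% over 34 peaks that cover Wnt6, Wnt10a, Cdk5r2, Fev and Cryba2. Each stretch was thus missing from every library of its own deletion and present in every library of the other. The stretches were defined by these values, and their peaks are left out of all counts below.

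A peak was called where the absolute log2 fold change was above 1 and edgeR (quasi-likelihood test) gave a Benjamini-Hochberg adjusted p under 0.05, adjusted across the 74391 peaks tested. Outside the stretches and with chromosome 8 set apart, 437 of 68743 tested peaks were called, or 0.636%. Of these, 332 peaks (0.483%) were higher and 105 (0.153%) were lower in the Hoxa deletion. The counts moved with the setting, to 482 higher and 64 lower with offsets that depend on abundance and 198 and 30 with DESeq2. With TMM factors taken off chromosome 8 they were 295 and 127, and with a replicate block 401 and 173. Without replicate 2 of the Hoxa deletion they were 303 and 144. The median log2 fold change of the 68743 peaks was 0.02, with quartiles of -0.18 and 0.22. Of the 1000 peaks with the highest mean CPM, from 142 to 950 CPM, 0 were called by edgeR or DESeq2, 25 had an unadjusted edgeR p under 0.05, and the log2 fold changes lay between -0.40 and 0.53. In a bulk library, fewer cells that carry the mark and less of the mark per cell cannot be told apart.

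**Figure D1:**
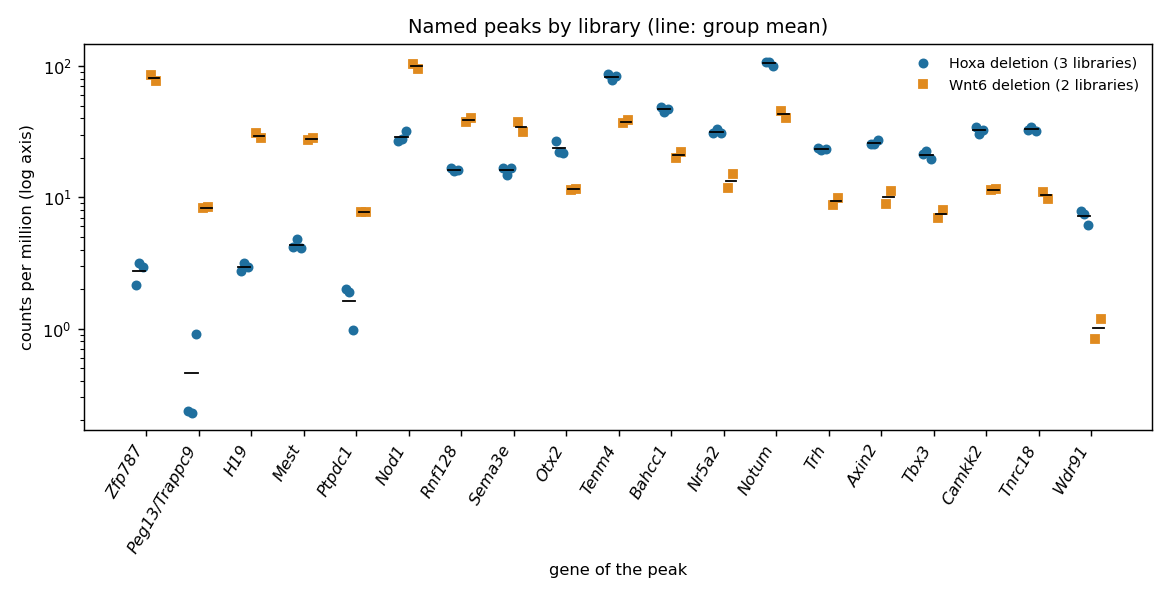
CPM on a log axis in each of the 5 libraries for 19 named peaks, ordered from those lower to those higher in the Hoxa deletion, with circles for the 3 Hoxa deletion libraries, squares for the 2 Wnt6 deletion libraries and lines for group means. The widest gaps are at Zfp787, Peg13/Trappc9, H19 and Mest.

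Around the deleted Hoxa genes the mark was lower in the Hoxa deletion close to the gap and near the level of the other line farther out. Of 16 tested peaks within 100 kb, 4 were called, all lower. Over the genome outside the stretches and chromosome 8, 0.153% of peaks were lower. On the Hoxa2 side, the peak at Hotairm1, a long noncoding RNA, lay 2.14 kb from the gap at chr6:52160461-52160910. It held 3.68, 4.47 and 3.77 CPM in the Hoxa deletion and 18.9 and 22.2 CPM in the Wnt6 deletion, which is a log2 fold change of -2.36 with a standard error (SE) of 0.17 (edgeR adjusted p = 1.96e-18). The peak was thus at 19.3% of the other level, above the 10% that defined the stretch.

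On the Hoxa13 side the lower levels reached farther. The peak at Hottip, a noncoding RNA at the 5′ end of the cluster that is known to act on the posterior Hoxa genes, held 0.593, 1.45 and 0.650 CPM in the Hoxa deletion and 7.70 and 5.95 CPM in the Wnt6 deletion. Its log2 fold change was -2.71 (SE 0.29, edgeR adjusted p = 7.40e-11). The 2 next peaks, at 6.61 and 7.95 kb and at no named gene, had log2 fold changes of -2.05 and -1.84. A broader peak 16.5 kb away, at chr6:52290966-52292566, held 30.8, 28.1 and 26.9 CPM against 56.8 and 56.3 CPM, and its log2 fold change of -0.99 (SE 0.11, edgeR adjusted p = 1.01e-09) fell just short of the minimum. Evx1, an even-skipped homeobox gene that neighbors Hoxa13, lay beyond the lower peaks. The peak over its promoter, 39.0 kb from the gap, held 333, 313 and 307 CPM in the Hoxa deletion and 309 and 289 CPM in the Wnt6 deletion, with a log2 fold change of 0.09 (SE 0.10). The median of all 16 flanking peaks was only -0.10, since the lower peaks were those nearest the gap.

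Around the Wnt6 stretch the sign was the opposite. Of 28 tested peaks within 100 kb, 4 were called, all higher in the Hoxa deletion and so lower in the line that lacks Wnt6. Over the genome outside the stretches and chromosome 8, 0.483% of peaks were higher. All 4 lay in Cfap65, a gene for a protein of cilia and flagella, between 1.03 and 6.05 kb from the gap. The nearest, at chr1:74902317-74902664, held 13.9, 16.0 and 16.1 CPM in the Hoxa deletion and 6.14 and 4.24 CPM in the Wnt6 deletion. Its log2 fold change was 1.66 (SE 0.18, edgeR adjusted p = 1.08e-10), and the other 3 lay between 1.24 and 1.45. Farther along Cfap65, a peak 15.4 kb from the gap stayed below the minimum (log2 fold change 0.90, edgeR adjusted p = 0.00537), and the peaks between 31.4 and 63.0 kb lay between -0.18 and 0.06. On the side of the lower coordinates, 3 peaks had log2 fold changes of 0.24, 0.39 and 0.87 with distance decreasing from 14.1 to 4.02 kb, and none of them was called.

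**Figure D2:**
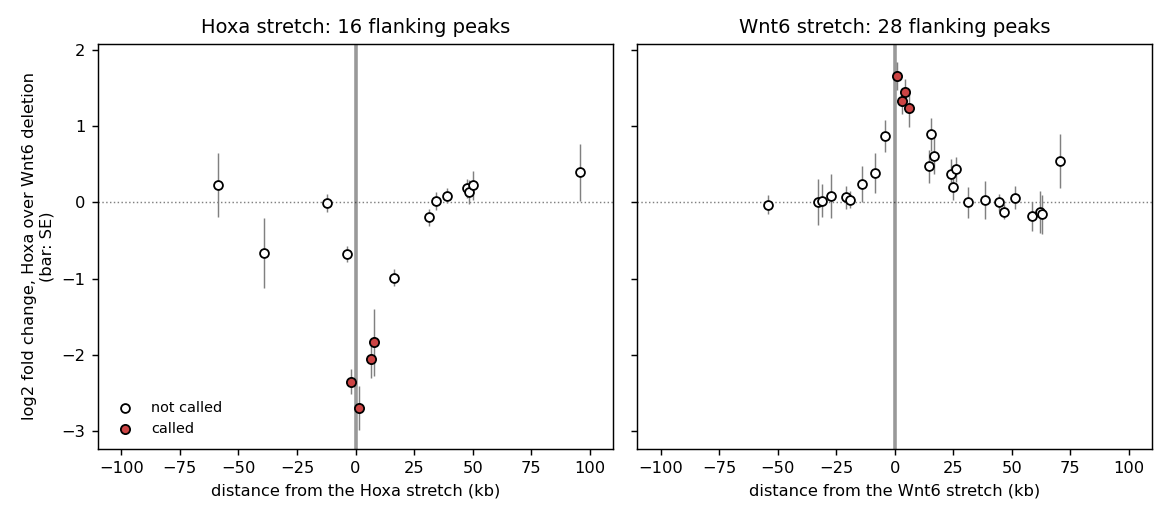
Log2 fold change (Hoxa over Wnt6 deletion) against the distance in kb from each deleted stretch, for 16 peaks beside the Hoxa stretch and 28 beside the Wnt6 stretch, with SE as bars and called peaks filled. The 4 called peaks on each side of the contrast lie within 7.95 kb of the gap, below 0 for Hoxa and above 0 for Wnt6.

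Ihh, which encodes the Indian hedgehog ligand, lay beyond that reach. The peak over its promoter held 353, 321 and 319 CPM in the Hoxa deletion and 377 and 343 CPM in the Wnt6 deletion. The groups overlapped, with a log2 fold change of -0.12 (SE 0.10, edgeR adjusted p = 0.603). At Nhej1, a DNA repair gene behind Ihh, the peak of smallest p held 10.7, 6.88 and 6.63 CPM against 3.85 and 4.69 CPM, with a log2 fold change of 0.82 that was not called (edgeR adjusted p = 0.00782). The median of the 28 flanking peaks was 0.14.

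At the loop partners no peak was called. Over all peaks outside the stretches and chromosome 8 the called share was 0.636%, so that no call among so few peaks says little. Vax2 and the 10 kb around it held 15 tested peaks, with a median log2 fold change of 0.08. Its strongest peak, over Vax2 and the antisense transcript Vax2os, held 192, 170 and 176 CPM in the Hoxa deletion and 181 and 160 CPM in the Wnt6 deletion, and the groups overlapped (log2 fold change 0.08, SE 0.10). The peak of smallest p, in the body of Vax2, was higher rather than lower in the Hoxa deletion, with 14.5, 17.4 and 17.7 CPM against 11.2 and 13.7 CPM, and did not pass (edgeR adjusted p = 0.116, log2 fold change 0.39). Over the 15 peaks, the values lay between -0.19 and 0.39, with 2 unadjusted edgeR p-values under 0.05, both higher, and 0 calls by DESeq2.

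At Pax3 most values were below 0. The 27 tested peaks at Pax3 and within 10 kb had a median log2 fold change of -0.35, that is, lower levels in the Hoxa deletion and higher levels in the line that lacks the Wnt6 anchor. The peak of smallest p, at chr1:78140515-78141086, held 5.10, 6.27 and 6.57 CPM in the Hoxa deletion and 11.0 and 11.0 CPM in the Wnt6 deletion. Its log2 fold change was -0.86 (SE 0.18, edgeR adjusted p = 0.000658), under the minimum for a call although the groups do not overlap. Of the 24 peaks assigned to Pax3 itself, 20 were below 0 and 4 above 0. The strongest peak, at chr1:78196426-78197456 toward the end of the gene with higher coordinates, held 85.3, 70.9 and 77.7 CPM against 75.5 and 72.4 CPM, and the groups overlapped (log2 fold change 0.07, SE 0.11). Among the 27 peaks, 12 had an unadjusted edgeR p under 0.05, all lower, 2 passed the adjusted p, and DESeq2 called 0. Under 4 alternatives 1 peak was called lower. In the second of 2 random downsamplings it was the peak of smallest p (log2 fold change -1.13), and with a replicate block, without replicate 3 of the Hoxa deletion and without replicate 2 of the Wnt6 deletion it was another (-1.04, -1.06 and -1.25). Peaks of 1 gene share their chromatin and are not replicates.

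Calls on chromosome 6 were not limited to the flanks. Of 3930 tested peaks outside the stretch 82 were called, or 2.09%, against 0.637% on chromosome 1 and between 0.156% and 0.778% on the other autosomes with chromosome 8 set apart. Of the 82, 56 were higher and 26 lower in the Hoxa deletion. More than 10 Mb from the stretch lay 66 of the 82 calls (49 higher, 17 lower) and 3434 of the 3930 tested peaks. Most calls thus lay far from the gap, as did most tested peaks. The called share was 1.92% there, against 2.64% at 1 to 10 Mb and 1.59% at 100 kb to 1 Mb. Within 100 kb it was 25%, or 4 of 16 peaks. Among the far calls, 14 higher and 2 lower came from 1 block of 147 kb that is described below. Whether the calls on chromosome 6 belong to the deletion or to the clone cannot be told apart.

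Mest, an imprinted gene for a hydrolase-like protein that is expressed from the paternal allele, had the lowest values on chromosome 6. All 4 of its tested peaks were called lower, with log2 fold changes between -4.45 and -2.66. The peak at chr6:30732605-30733663 held 4.15, 4.78 and 4.10 CPM in the Hoxa deletion and 27.4 and 28.5 CPM in the Wnt6 deletion (log2 fold change -2.66, SE 0.16, edgeR adjusted p = 9.20e-23). The peak at chr6:30737972-30738351 held 0.356, 0.229 and 0.390 CPM against 5.62 and 5.48 CPM (log2 fold change -4.16). Nod1, a cytoplasmic receptor for bacterial cell wall peptides, was lower at all 3 of its peaks. The broadest, at chr6:54942986-54945266, held 26.9, 27.6 and 31.9 CPM against 104 and 94.7 CPM, a log2 fold change of -1.78 (SE 0.11, edgeR adjusted p = 1.68e-21). The peak at the start of Nod1 had a log2 fold change of -1.44, and the third -1.04. In Arhgap25, which encodes a GTPase-activating protein for Rac, a peak held 3.56, 5.39 and 6.70 CPM against 11.9 and 13.8 CPM (log2 fold change -1.27).

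Higher on chromosome 6 in the Hoxa deletion was a peak in Wdr91, a regulator of endosomes, with 7.83, 7.49 and 6.11 CPM against 0.833 and 1.18 CPM (log2 fold change 2.70, SE 0.27, edgeR adjusted p = 4.30e-12). At Trh, the gene for thyrotropin-releasing hormone, the promoter peak held 23.7, 23.0 and 23.5 CPM against 8.74 and 9.85 CPM, a log2 fold change of 1.31 (SE 0.15, edgeR adjusted p = 3.80e-10). The 3 Hoxa deletion libraries agreed closely at Trh. Differences of the same sign were also called at the zinc finger gene Zfp783 (log2 fold change 1.06) and at Gprc5a, an orphan receptor induced by retinoic acid (1.27). Another was at Tmcc1, which encodes a protein of the endoplasmic reticulum (1.56). Zfp783 fell below the minimum without replicate 3 of the Hoxa deletion (0.90) or replicate 2 of the Wnt6 deletion (0.94).

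The bases before the gene start are shown for 3 genes of chromosome 6 and 3 of other chromosomes at which a called peak overlaps the start, since these are the starts where the lines differ. They are RefSeq sequences of GRCm38.p6, 250 bases up to the start and 5′ to 3′ on the strand of the gene, with each CpG (CG, a palindrome read alike on both strands) in capitals because CpG-rich DNA is known to recruit Polycomb complexes. Of 32851 RefSeq promoter windows of this length, 92.1% held at least 1 CpG, and the median was 6 with quartiles of 2 and 16.
Mest, lower, chr6:30737800-30738049, + strand: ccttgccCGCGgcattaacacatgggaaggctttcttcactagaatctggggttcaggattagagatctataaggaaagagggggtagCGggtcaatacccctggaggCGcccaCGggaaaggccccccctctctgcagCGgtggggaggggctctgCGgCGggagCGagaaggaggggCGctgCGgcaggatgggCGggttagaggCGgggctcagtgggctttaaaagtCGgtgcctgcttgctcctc
Nod1, lower, chr6:54972613-54972862, - strand: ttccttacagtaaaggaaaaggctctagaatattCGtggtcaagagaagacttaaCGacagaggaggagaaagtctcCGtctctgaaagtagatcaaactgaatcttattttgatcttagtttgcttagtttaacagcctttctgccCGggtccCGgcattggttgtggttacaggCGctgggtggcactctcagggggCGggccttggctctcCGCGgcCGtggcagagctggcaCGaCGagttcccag
Rnf128, lower, chrX:139610370-139610619, + strand: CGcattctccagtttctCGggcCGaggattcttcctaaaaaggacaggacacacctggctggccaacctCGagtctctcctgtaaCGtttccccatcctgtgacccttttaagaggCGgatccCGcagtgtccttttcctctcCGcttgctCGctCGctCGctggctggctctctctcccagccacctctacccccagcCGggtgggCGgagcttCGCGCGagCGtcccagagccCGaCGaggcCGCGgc
Trh, higher, chr6:92244651-92244900, - strand: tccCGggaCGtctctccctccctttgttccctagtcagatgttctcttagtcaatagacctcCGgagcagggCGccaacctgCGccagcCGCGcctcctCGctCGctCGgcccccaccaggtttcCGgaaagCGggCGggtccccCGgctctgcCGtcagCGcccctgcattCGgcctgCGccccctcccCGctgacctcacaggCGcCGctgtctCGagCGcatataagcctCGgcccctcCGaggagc
Camkk2, higher, chr5:122779411-122779660, - strand: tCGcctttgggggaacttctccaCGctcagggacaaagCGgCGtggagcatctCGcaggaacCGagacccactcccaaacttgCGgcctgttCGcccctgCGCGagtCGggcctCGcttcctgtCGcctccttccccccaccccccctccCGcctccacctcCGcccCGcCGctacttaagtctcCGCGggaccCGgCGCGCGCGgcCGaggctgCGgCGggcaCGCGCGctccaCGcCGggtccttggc
Tenm4, higher, chr7:96211421-96211670, + strand: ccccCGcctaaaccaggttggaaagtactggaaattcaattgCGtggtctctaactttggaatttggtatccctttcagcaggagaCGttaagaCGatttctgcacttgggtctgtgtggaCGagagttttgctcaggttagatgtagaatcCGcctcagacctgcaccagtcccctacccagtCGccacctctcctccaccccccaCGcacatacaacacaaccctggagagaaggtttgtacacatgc

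The windows held 14 CpGs at Mest, 12 at Nod1, 21 at Rnf128, 25 at Trh, 32 at Camkk2 and 8 at Tenm4, with a median of 6 over all windows. Windows at other starts of these genes held 7 at Mest, 4 at Nod1 and 4 at Tenm4. Among called peaks outside the stretches and chromosome 8, 33 of the 332 higher peaks (9.94%) and 7 of the 105 lower peaks (6.67%) overlapped a promoter window of 300 bases. The share was 15.6% of all 68743 tested peaks there. The promoters under them held a median of 12 CpGs (higher) and 11 (lower) per 300 bases, and those under all tested peaks 19. Median levels were 3.44 CPM at the higher, 2.05 CPM at the lower and 3.88 CPM at all tested peaks.

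Between Hrh1, a histamine receptor gene, and Atg7, an autophagy gene, lay a stretch of chromosome 6 that was chosen for description after its values were seen. Its 48 tested peaks span 147 kb and begin 62.2 Mb from the deleted cluster. Of these, 43 had a positive and 5 a negative log2 fold change, with a median of 0.90. Calls were 14 higher and 2 lower, and without the minimum on the fold change 38 higher and 3 lower passed the adjusted p. The summed level was 723, 675 and 692 CPM in the Hoxa deletion and 426 and 409 CPM in the Wnt6 deletion. Inside this block of higher levels, the peak at chr6:114565097-114565865 went the other way, with 13.2, 12.2 and 12.2 CPM against 32.3 and 28.7 CPM (log2 fold change -1.28, SE 0.13, edgeR adjusted p = 3.69e-11).

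**Figure D3:**
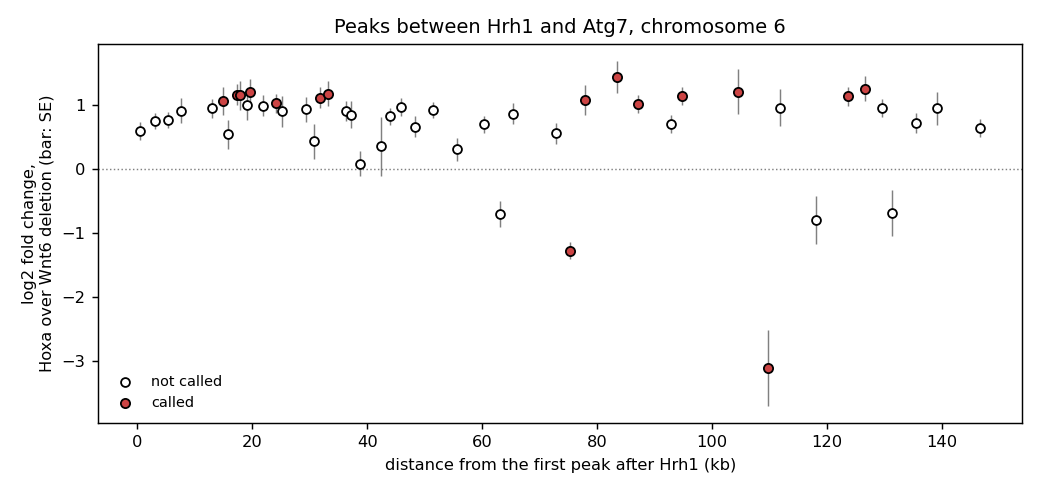
Log2 fold change (Hoxa over Wnt6 deletion) of 48 peaks between Hrh1 and Atg7 on chromosome 6 against the distance in kb from the first of them, with SE as bars and called peaks filled. Of the peaks, 43 lie above 0, and the 2 called lower peaks stand below a block with a median of 0.90.

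Chromosome 1 outside the Wnt6 stretch had 25 higher and 6 lower peaks among 4865 tested, 0.637% in all. The split was 21 and 9 with TMM factors taken off chromosome 8, and 35 and 3 with offsets that depend on abundance. The median of these peaks was -0.01. At Nr5a2, an orphan nuclear receptor of the pluripotency network, 3 peaks were higher in the Hoxa deletion. The strongest held 30.9, 33.1 and 30.7 CPM against 11.9 and 14.9 CPM, a log2 fold change of 1.20 (SE 0.14, edgeR adjusted p = 4.56e-10). At Gli2, a transcription factor of the hedgehog pathway, 3 peaks were higher too, and the one at its promoter held 14.3, 12.5 and 12.7 CPM against 6.35 and 5.95 CPM (log2 fold change 1.10). The 6 lower peaks were weaker. The one of smallest p, at no named gene, was at chr1:42183790-42184453 and held 2.49, 2.94 and 3.06 CPM against 6.25 and 7.28 CPM (log2 fold change -1.25). Others lay in Slc9a2, a sodium-proton exchanger (just past the minimum), in Pappa2, a protease of IGF-binding proteins (log2 fold change -1.29), and in Esrrg, an orphan nuclear receptor (-1.22). No library exceeded 4.79 CPM at the peaks of these 3 genes. Leaving out a library ended the calls, at Pappa2 without replicate 2 of the Wnt6 deletion (-0.99), at Esrrg without either Wnt6 deletion library (-1.10 and -1.40, edgeR adjusted p = 0.137 and 0.104), and at Slc9a2 without any of 4 libraries (-0.90 to -1.06).

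On the other chromosomes, with 1, 6 and 8 left out, 251 peaks were higher and 72 lower in the Hoxa deletion of 59854 tested. With offsets that depend on abundance the split was 378 higher and 39 lower, and with TMM factors taken off chromosome 8 it was 225 and 88. Without replicate 2 of the Hoxa deletion it was 226 and 105. Notum, an extracellular enzyme that removes the lipid from Wnt ligands, was higher at both of its peaks. The main one held 108, 108 and 99.8 CPM against 45.7 and 40.5 CPM (log2 fold change 1.30, SE 0.11, edgeR adjusted p = 1.17e-14). Axin2, a scaffold of the beta-catenin destruction complex and itself a Wnt target, held 25.3, 25.5 and 27.1 CPM against 8.95 and 11.1 CPM at its called peak of smallest p (log2 fold change 1.34, SE 0.14, edgeR adjusted p = 9.68e-11). All 7 peaks of Axin2 were above 0, and 2 were called. At Fzd10, a Wnt receptor, 1 weak peak was called (log2 fold change 1.03), while the strongest peak of the gene was not. That call was lost without replicate 2 of the Hoxa deletion (0.75) and without either Wnt6 deletion library (0.91 and 1.34).

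Notum and Fzd10 belong to a list of Wnt receptors and antagonists. Of its 79 peaks, 3 were called higher and 0 lower by edgeR. Of the 68743 peaks outside the stretches and chromosome 8, 0.483% were higher and 0.153% lower. The median log2 fold change of the list was -0.01, against 0.02 for those 68743 peaks. Axin2 is not on that list. Of 139 peaks of Wnt ligand genes, to be read against the same 0.483% and 0.153%, 1 was higher, in Wnt5b with 3.56, 2.87 and 3.58 CPM against 1.25 and 1.62 CPM (log2 fold change 1.12), and 1 was lower, in Wnt2 with 0.593, 0.918 and 0.585 CPM against 1.67 and 2.12 CPM (log2 fold change -1.40). The Wnt2 call was lost without any 1 of the 5 libraries (log2 fold changes of -1.16 to -1.72) and the Wnt5b call without either Wnt6 deletion library (1.01 and 1.40). The median of the ligand list was -0.01.

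Bahcc1, which encodes a protein with a BAH domain, was higher along its length. Of its 12 peaks, 10 were called higher and all 12 were above 0, with a median log2 fold change of 1.13. The summed level over these peaks was 152, 152 and 165 CPM in the Hoxa deletion and 69.0 and 70.7 CPM in the Wnt6 deletion. Tnrc18, a gene for a related BAH domain protein, had 3 of 6 peaks called higher. The strongest held 32.5, 34.3 and 32.0 CPM against 11.0 and 9.72 CPM (log2 fold change 1.69, SE 0.14, edgeR adjusted p = 1.88e-15). Tbx3, a T-box factor that acts in pluripotency and limb development, had 3 of 5 peaks called higher, and the peak of smallest p held 21.5, 22.5 and 19.4 CPM against 6.97 and 7.99 CPM (log2 fold change 1.47). The promoter peak of Camkk2, a calmodulin-dependent kinase kinase, held 34.4, 30.2 and 32.6 CPM against 11.3 and 11.5 CPM (log2 fold change 1.49). A peak at a start of Tenm4, a teneurin of neuronal adhesion, held 86.3, 78.6 and 84.0 CPM against 36.6 and 38.5 CPM (log2 fold change 1.14). The peak at another start of Tenm4 had a log2 fold change of only 0.27. At Arhgef15, a guanine nucleotide exchange factor of vessels and neurons, 4 of 6 peaks were higher.

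Part of the called peaks lay in groups of the same sign. With gaps of up to 100 kb allowed, 436 called peaks of assembled chromosomes formed 320 groups, and 179 of the peaks (41.1%) were in the 63 groups with more than 1 peak. Of 13 groups with at least 4 called peaks, 12 were higher in the Hoxa deletion, and the largest held 11 peaks, 10 of them assigned to Bahcc1. Msi1, a neural RNA-binding protein, had 5 called peaks, Foxp4, a forkhead factor, 4, and the stretch from Bcat1 to Lrmp on chromosome 6 held 5. Peaks of a group are not independent of each other, and the number of called peaks overstates the number of places.

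Among the lower peaks of smallest adjusted p on these chromosomes were 3 genes of the list of imprinted genes. Zfp787, a zinc finger gene, had the largest log2 fold change of all peaks outside the stretches and chromosome 8, at chr7:6131781-6133471. It held 2.13, 3.17 and 2.93 CPM in the Hoxa deletion and 85.7 and 76.2 CPM in the Wnt6 deletion, which is a log2 fold change of -4.80 (SE 0.15, edgeR adjusted p = 6.20e-39). Of the 3 peaks of Zfp787 only 1 was called, and the others had log2 fold changes of -0.27 and -0.12. H19, a noncoding RNA expressed from the maternal allele, had 3 of 4 peaks called lower. The strongest held 2.73, 3.14 and 2.93 CPM against 30.8 and 28.1 CPM (log2 fold change -3.30, SE 0.16, edgeR adjusted p = 1.59e-26). At Peg13, an imprinted noncoding RNA inside Trappc9, both peaks were lower, and the stronger held 0.237, 0.229 and 0.910 CPM against 8.22 and 8.38 CPM (log2 fold change -4.20, SE 0.32, edgeR adjusted p = 4.66e-17).

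Of 298 peaks at 61 imprinted genes, 10 were lower and 1 was higher. Of the 68743 peaks outside the stretches and chromosome 8, 0.153% were lower and 0.483% higher. The list was written with earlier results on these data known, and the 10 peaks came from Mest (4), H19 (3), Peg13 within Trappc9 (2) and Zfp787 (1). The median of the list was -0.01. The single higher peak, in Kcnq1 on the side of Kcnq1ot1, held 1.54, 1.30 and 2.08 CPM against 0.312 and 0.524 CPM (log2 fold change 1.80). It was not called without replicate 3 of the Hoxa deletion or without either Wnt6 deletion library, with log2 fold changes of 1.57 to 2.36.

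Other lower peaks were at Ptpdc1, a phosphatase gene, with 2.02, 1.91 and 0.975 CPM against 7.70 and 7.78 CPM (log2 fold change -2.25, SE 0.25), and at the promoter of Rnf128, an E3 ubiquitin ligase on the X chromosome, with 16.6, 16.0 and 16.1 CPM against 37.6 and 40.4 CPM (log2 fold change -1.27, SE 0.12, edgeR adjusted p = 2.76e-12). Sema3e, a guidance cue for axons and vessels, held 16.8, 14.9 and 16.7 CPM against 37.3 and 31.7 CPM at its promoter (log2 fold change -1.09). Peaks in Slc14a2, a urea transporter, and in Celf2, an RNA-binding protein, had log2 fold changes of -1.09 and -1.01. Values fell short of the minimum at Sema3e without replicate 1 of the Wnt6 deletion (-0.98), at Slc14a2 without replicate 3 of the Hoxa deletion (-0.94), and at Celf2 without replicate 1 or 3 of the Hoxa deletion or replicate 1 of the Wnt6 deletion (-0.98, -0.90 and -0.73).

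At the other Hox clusters the lines had like levels. Of 43 peaks at Hoxb, 39 at Hoxc and 36 at Hoxd genes, 0 were called by edgeR, and the medians were 0.04, 0.03 and 0.05. Their values stayed between -0.27 and 0.28 over all 118 peaks. An unadjusted edgeR p under 0.05 was reached by 3 of them, and DESeq2 called 0. Of 109 peaks at Pax genes other than Pax3 and 82 at Nkx and Msx genes, 0 were called by edgeR and 0 by DESeq2. Of 132 at LIM homeobox genes, 43 at Gata genes and 70 at mesoderm and endoderm markers, 0 were called by either. Over all peaks outside the stretches and chromosome 8 edgeR called 0.636%, so that 0 calls in lists of these sizes says little about them. Among the peaks of these lists, 30 had an unadjusted edgeR p under 0.05 and 6 passed the adjusted p. Of 68 peaks at neural markers, 1 was higher, near Otx2, a homeobox gene of the forebrain and of primed pluripotency. It held 22.0 and 21.7 CPM in replicates 2 and 3 of the Hoxa deletion, with replicate 1 above both, against 11.3 and 11.6 CPM (log2 fold change 1.02, SE 0.14), and all 9 peaks of Otx2 were above 0. The call was lost under 7 alternatives, among them another scaling and the fit without replicate 1 of the Hoxa deletion (0.92).

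Genes of Polycomb itself and of the stem cell state were also read. Of 96 peaks at genes for PRC1 and PRC2 subunits, 2 (2.08%) were higher, against 0.483% of the 68743 peaks outside the stretches and chromosome 8. Both lay in Kdm2b, the CpG-binding subunit of a variant PRC1. The one of smaller p held 5.34, 4.59 and 4.81 CPM against 1.56 and 2.17 CPM (log2 fold change 1.29). Kdm2b had 5 peaks in all, with a median log2 fold change of 0.18. Their summed level was 86.6, 92.1 and 81.9 CPM against 77.4 and 73.9 CPM. Of 52 peaks at pluripotency genes, 4 (7.69%) were higher, against the same 0.483%, with 3 in Tbx3 and 1 in Tfcp2l1, a factor of naive pluripotency, with 5.45, 4.17 and 3.25 CPM against 1.14 and 1.76 CPM (log2 fold change 1.42). The median of the pluripotency list was 0.18, against 0.02 for the same 68743 peaks. Of 50 peaks at germline genes 0 were called by edgeR or DESeq2 and 21 had an unadjusted edgeR p under 0.05, all higher, as had 9326 of all 68743 peaks in either direction. The adjusted p passed at 6 of the 50, and the median was 0.22. Of 6 peaks at housekeeping genes 0 were called and 2 had such a p, with a median of 0.23. Peaks at fibroblast genes, read because of the feeder cells, numbered 62, with 0 called by either tool. An unadjusted edgeR p under 0.05 was reached by 5, the median was -0.05, and the median levels were 5.33 CPM and 5.38 CPM. These levels do not measure the share of feeder cells, since the mESCs can carry the mark at these genes too. A mark on chromatin is not a measure of transcripts, and none was taken here.

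**Figure D4:**
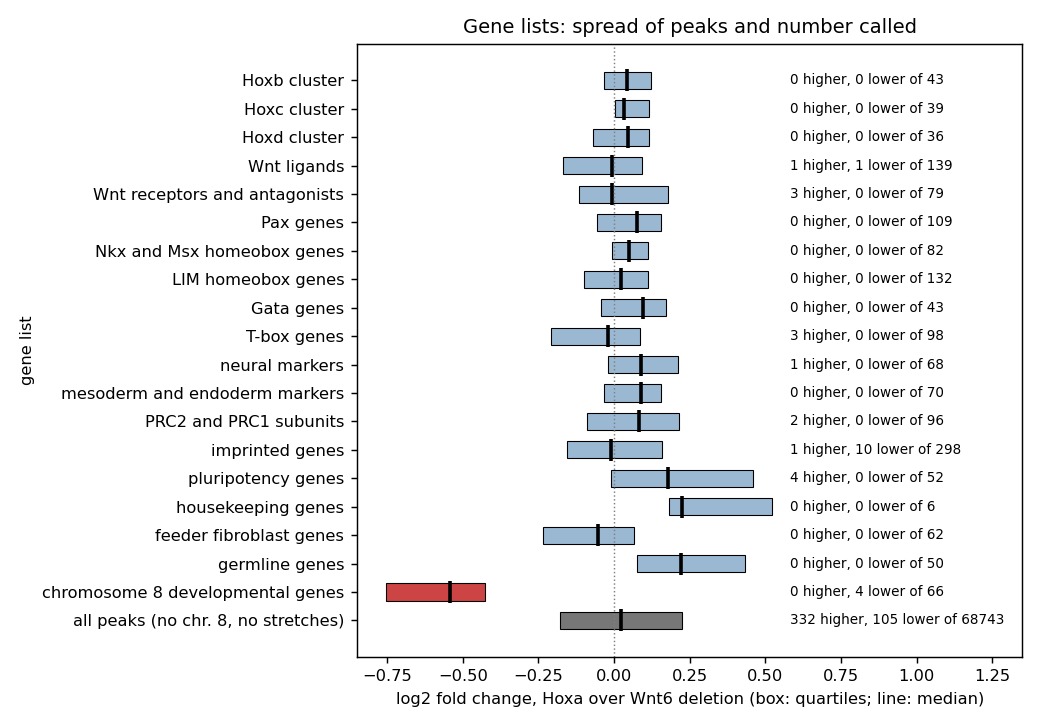
Log2 fold change (Hoxa over Wnt6 deletion) over the peaks of 19 gene lists and of all tested peaks outside the stretches and chromosome 8, with the quartiles as boxes, the median as a line and the number of called peaks at the right. Lists of the deleted stretches, their flanks and the loop partners are not drawn, and the medians shown lie between -0.06 and 0.23 except that of the chromosome 8 genes, at -0.54.

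Chromosome 8 stood apart as a whole. Of its 5568 tested peaks 452 were called, or 8.12%, and all 452 were lower in the Hoxa deletion. Without replicate 1 or 2 of the Wnt6 deletion, 257 or 190 peaks were called. The median log2 fold change was -0.59, with quartiles of -0.82 and -0.38, and 96.5% of the peaks were below 0. On the 18 other autosomes and the X the medians lay between -0.01 and 0.09. The chromosome took 5.45%, 5.46% and 5.49% of the counts in the Hoxa deletion libraries and 7.92% and 7.81% in the Wnt6 deletion libraries, a ratio of means of 0.695. The groups do not overlap, and the exact two-sided permutation p of 0.2 is the smallest that 3 against 2 libraries allow.

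The shift ran along the whole of chromosome 8. In 13 consecutive bins of 10 Mb, the medians lay between -0.68 and -0.48. In 256 such bins with at least 20 peaks elsewhere they lay between -0.22 and 0.28. The shift was also present at every level of the mark, with medians of -0.75, -0.59, -0.53 and -0.50 in peaks from the lowest to the highest quartile of CPM, against -0.08, 0.02, 0.05 and 0.05 on the other chromosomes. The spread within chromosome 8 was like that elsewhere, with an interquartile range of 0.43 against 0.36 to 0.46. A difference in chromosome copy number and a difference in the mark along the chromosome cannot be told apart from these counts.

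**Figure D5:**
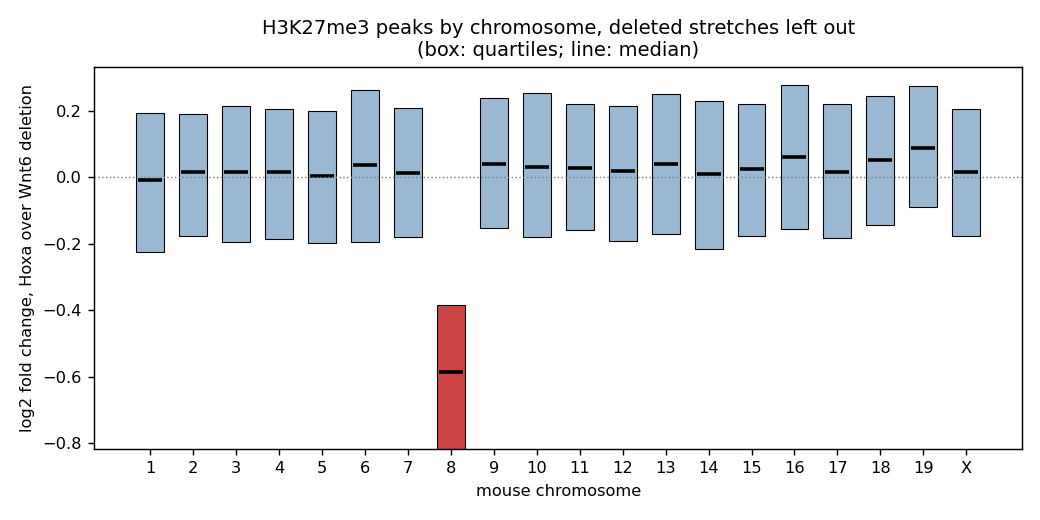
Log2 fold change (Hoxa over Wnt6 deletion) of the tested peaks of each chromosome, with quartiles as boxes and medians as lines, without the deleted stretches. Chromosome 8 (red) has a median of -0.59, and those of the other 19 chromosomes shown lie between -0.01 and 0.09.

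Developmental genes of chromosome 8 were lower as well. Their 66 peaks had a median of -0.54, and 4 were called, against 8.12% of the chromosome, all in Nrg1, which encodes neuregulin, a ligand of ErbB receptors. The one of smallest p had a log2 fold change of -1.17, and of -0.97 without replicate 2 of the Wnt6 deletion, which ended the call. The strongest peak of Irx3, an Iroquois homeobox gene, held 220, 195 and 210 CPM in the Hoxa deletion and 302 and 266 CPM in the Wnt6 deletion (log2 fold change -0.45). At Foxf1, a forkhead gene of lung and gut mesenchyme, the strongest peak held 267, 238 and 255 CPM against 361 and 309 CPM (log2 fold change -0.40). At Hand2, a factor of heart and limb, it held 94.3, 87.0 and 88.2 CPM against 133 and 115 CPM (log2 fold change -0.47). Over the strongest peaks of the 12 genes, the log2 fold changes ran from -0.72 at Tox3 to -0.31 at Nkx6-3. Of them, 11 were above the median of the chromosome. That median covers peaks of every level, and the peaks of the chromosome in the highest quartile of CPM had a median of -0.50.

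Once the median of each chromosome was removed, 13 peaks of chromosome 8 were called, 7 lower and 6 higher. The called peaks of Efnb2, an ephrin ligand of vessels and axons (log2 fold change -1.15), and Nr2f6, an orphan nuclear receptor (-1.24, at its promoter), were no longer called after that removal. Higher beyond the median of the chromosome were, among others, peaks at Slc7a6, an amino acid transporter, and Gdf15, a secreted stress factor (both 1.01 after removal).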

How the data were processed

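Per the labels and methods, Cut&Tag with an H3K27me3 antibody was run on mESCs of each deletion line, and libraries were amplified by PCR. The authors deposited raw counts over a shared peak list, without normalization, in a table of 74458 peaks. The labels name the build mm10 and the tools Bowtie2, Trimmomatic, SAMtools, Picard, MACS2 and deepTools without roles. Which libraries gave the peak list, whether duplicates were removed, and whether starts count from 0 or 1 is not given in the sources used here. If peaks were called on part of the libraries, the list favors those. IgG libraries and the 2 Hmx1 deletion libraries were left out, so no background was subtracted. The methods describe 3 replicates per deletion, and the table has 2 for Wnt6.

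Peaks were filtered with filterByExpr, which left 74391, scaled by TMM factors and tested with glmQLFit and glmQLFTest in edgeR 4.0.16 (R 4.3.3, limma 3.58.1), with Hoxa against Wnt6 deletion as the only term. CPM values are TMM-scaled, log2 values used a prior count of 2, and SEs derive from the F statistic. A deleted stretch was the longest run of peaks in which every library of a deletion lay under 10% of the mean of the other. Peaks were assigned to RefSeq genes of GRCm38.p6 that they overlap or, failing that, within 10 kb. Strand was not used, and peaks over overlapping genes belong to both. Gene lists kept their peaks on chromosome 8, which the shares and medians set beside them leave out. The procedure was tested on simulated counts. The members and gene lists were chosen with earlier results of these data known.

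Named peaks were the called peaks of smallest adjusted p in which the groups do not overlap, 1 per gene with a formal symbol, 5 each way on chromosome 6, 3 each on 1 and 8 and 8 each on the others. To these were added called list genes, the peaks of smallest p and highest CPM at flank and partner genes, and the highest peaks of the chromosome 8 genes. Alternatives were DESeq2 1.42.0, RLE factors, library totals alone, TMM factors off chromosome 8, offsets by chromosome or abundance, 2 other filters, a fit with all 7 libraries, a replicate block, downsampling, each library left out, other call rules and windows, and, chosen after seeing the data, DESeq2 without independent filtering and a second downsampling draw. Results at some genes are not reported here.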

Additional observations from a re-analysis of the deposited data

How the results depend on the processing

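Of 196 alternative values for the counts and medians, 158 were marked as unchanged, by a rule that was loose for counts. Counts so marked on the other chromosomes were 442 with a replicate block and 417 with abundance offsets, against 323. On chromosome 8 they included 328 with abundance offsets against 452, and on chromosome 6 58 without replicate 2 of the Wnt6 deletion against 82. DESeq2 called 48 peaks on chromosome 6, 20 on chromosome 1, 144 on chromosome 8 and 160 on the others, and gave no adjusted p to 199 of the 437 called peaks. Of the 238 to which it gave one, 218 had an adjusted p under 0.05. Without independent filtering, chosen after seeing the data, it called 189 on chromosome 8 and 185 on the others. Without the minimum on the fold change, calls were 250, 136, 1714 and 1892 on chromosomes 6, 1, 8 and the others, and with a minimum of 2 they were 9, 0, 7 and 12. Adjustment within chromosome 8 alone gave 690 calls there.

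With chromosome medians removed, chromosome 8 had 13 calls and a median of -0.016. Its median was -0.62 with TMM factors off chromosome 8, -0.54 with abundance offsets, -0.57 downsampled and -0.60 with library totals. In windows of 50 kb and 1 Mb, the flank medians were -0.67 and 0.081 for Hoxa and 0.31 and 0.038 for Wnt6. A second draw of the downsampling, added after seeing the data, gave -0.57 on chromosome 8 and -0.15 at the Hoxa flank. With a 25% cutoff, 0.380% was left in the Hoxa stretch.

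With 1 library left out, calls ranged from 58 to 91 on chromosome 6, 22 to 38 on chromosome 1, 190 to 473 on chromosome 8 and 195 to 401 on the others. Medians ranged from -0.19 to -0.015 at the Hoxa flank, 0.13 to 0.31 at the Wnt6 flank, 0.057 to 0.14 at Vax2, -0.43 to -0.28 at Pax3 and -0.59 to -0.55 on chromosome 8. What was left in the stretches ranged from 0.129% to 0.156% for Hoxa and from 0.500% to 0.549% for Wnt6. A lone Wnt6 deletion library was assumed to vary like the other group. Of the 437 peaks, 118 were called in all 5 of these fits, 97 higher and 21 lower.

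Replicates 1 and 2 of the lines share only a number. Deviations of same-numbered libraries correlated at 0.07 and 0.01. A replicate block gave 92 calls on chromosome 6, 39 on chromosome 1, 495 on chromosome 8 and 442 on the others, with medians of 0.14 at Vax2 and -0.59 on chromosome 8.

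Of 1236 alternative values for 69 named peaks, 1157 kept the call and direction, 65 lost the call and 1 gained it. The sign turned at 13, none of them called. With chromosome medians removed it did so for the strongest peaks of Nkx6-3 (0.26), Nrg1 (0.12), Fgf20 (0.057), Hand2 (0.10), Sall1 (0.13), Irx3 (0.12), Irx5, over Crnde as well (0.049), Irx6 (0.092), Foxf1 (0.16), Foxc2 (0.094) and Foxl1 (0.17). It also did so at Slc23a3 without a library, where values ran from -0.13 to 0.35, and at the strongest Vax2 peak without replicate 2 of the Wnt6 deletion (-0.0073). Calls lost at named peaks were 1 under DESeq2, which gave some called peaks no adjusted p, and 6 without its independent filtering. The causes of these changes were not tested. Depth limits most the 2 smallest libraries, replicate 1 of each line.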

Other observations

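Peaks on unlocalized pieces of chromosome 1, which enter only the totals over all peaks above, had summed levels below those of the Wnt6 deletion in every Hoxa deletion library. The table held 39 tested peaks on 4 such pieces, and all 39 had a negative log2 fold change, with a median of -0.73. The summed level was 70.6, 80.0 and 61.4 CPM in the Hoxa deletion and 121 and 111 CPM in the Wnt6 deletion, and the groups do not overlap. Only 1 of the peaks passed the rule for a call (edgeR). On the assembled chromosome 1 the median was -0.01. On the unplaced piece with the most peaks, 31 peaks had a median of -0.17, with summed levels of 2229, 1983 and 1883 CPM against 2529 and 1951 CPM, where the groups overlap. Pieces of this kind are rich in repeats, and how reads that fit several places were counted is not given in the sources used here.

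Calls were spread unevenly over the levels of the mark. Outside the stretches and chromosome 8, lower peaks were 55 of 17186 in the lowest quartile of mean CPM and 12 of 17186 in the highest. Higher peaks were 61 in the lowest quartile, 137 in the second, 76 in the third and 58 in the highest. The median log2 fold change moved with the level too, from -0.08 in the lowest quartile to 0.05 in the highest.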
